A study of Bos grunniens with 24 samples.

Results

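In jejunum of yak calves (Bos grunniens), 8 libraries from calves challenged with enterotoxigenic Escherichia coli (ETEC) were set against the 3 control (CON) libraries whose brush border gene level was as low as theirs. RNA sequencing of the whole study covered 24 libraries in 3 groups of 8: CON, ETEC, and PET, which were calves pretreated with P. pentosaceus NQ0729 and then given ETEC. The comparison described here uses 11 of the 24. The CON libraries were chosen by a geometric mean of (FPKM + 0.1) below 5 over 11 genes, where FPKM is a fragment count divided by gene length and by the fragments mapped. The 11 genes were the peptidases ANPEP and ENPEP, the carbonic anhydrases CA4 and CA12, the bile acid transporter SLC10A2, the amino acid transporters SLC1A1, SLC6A19 and SLC7A9, the chloride-bicarbonate exchanger SLC26A3, the ascorbate transporter SLC23A1 and the phosphate transporter SLC34A2. Below 5 stood CON-4, CON-7 and CON-8. Age, dose, time after challenge and any treatment shared by the groups were not given in the sources used here. The labels do not name the animals behind the samples, so the p-values reflect only how these samples spread.

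Enterocytes of the small intestine carry peptidases and transporters on their apical brush border, where peptides, amino acids, phosphate, bile acids and vitamins are taken up. The amounts change along the length of the gut and between crypt and villus. Enterotoxigenic E. coli attaches to this epithelium and releases toxins that raise cyclic nucleotides in the cell, which drives chloride and water into the lumen. When controls differ from each other in brush border level, a gene that follows that level differs between challenged and control tissue too, and the matched comparison asks which listed genes differ beyond it.

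Among the genes that chose the controls, ANPEP, aminopeptidase N (ENSBGRG00000006001), was at 8.72, 9.71 and 9.56 FPKM in CON-4, CON-7 and CON-8. It was at 7.53 to 16.2 FPKM in ETEC (median 11.7) and at 311 to 716 in the other 5 CON libraries. SLC6A19, which carries neutral amino acids, was at 0.884 to 1.08 FPKM in the 3 chosen libraries, at 0.495 to 1.87 in ETEC and at 29.99 to 83.2 in the other CON libraries. The ETEC and the 3 CON libraries therefore overlapped for both genes, which follows from the choice. The geometric mean over the 11 genes was 1.05, 1.19 and 1.12 in the 3 controls, in the order given, and 0.921 to 1.34 in ETEC. Just inside the limit of 5 stood CON-7 at 1.19 and just outside it CON-3 at 11.2, so no CON library lay near it. In PET the same mean ran from 0.955 to 84.5. CA4, a membrane-bound carbonic anhydrase, was the 1 gene of the 11 that overlapped between the chosen and the other controls, with 0.158 to 0.330 FPKM in the 3 chosen libraries and 0.247 to 6.91 in the other 5.

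**Figure D1:**
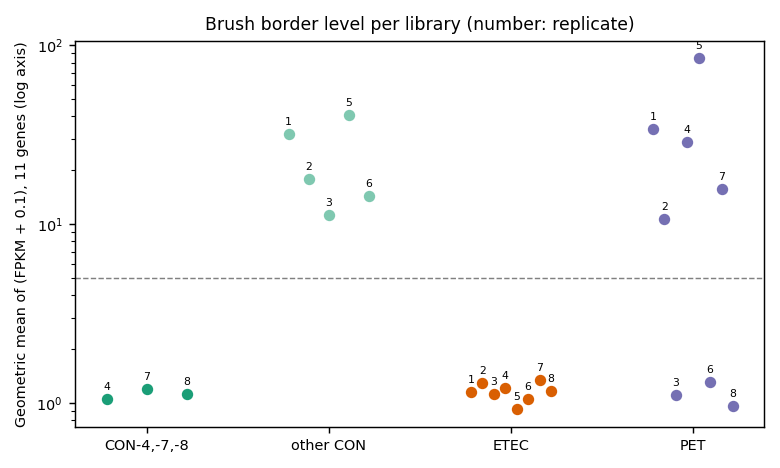
Geometric mean of (FPKM + 0.1) over the 11 brush border genes on a log axis, 1 point per library with its replicate number, for the 3 chosen CON libraries, the other 5 CON libraries, ETEC and PET; the dashed line marks 5. The 3 chosen controls (1.05 to 1.19) sit among the ETEC libraries (0.921 to 1.34) and the other CON libraries lie at 11.2 to 40.9.

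Several libraries stood apart. The first 4 ETEC libraries, ETEC-1 to ETEC-4, lay close to weighted sums of pairs of other ETEC libraries over 510 genes, with residuals of 0.453 to 0.653 of that left by the best single library. In CON, CON-1 to CON-3 lay close to such sums too: CON-1 to CON-5 with CON-6 (0.451), CON-2 to CON-5 with CON-7 (0.690) and CON-3 to CON-4 with CON-6 (0.255). The 8 CON libraries are therefore not 8 clearly separate controls, and 2 of the sums hold a chosen library. Nor are the 8 ETEC libraries clearly separate from each other, so n = 8 below is the number of libraries in the fit. The same holds for PET, where PET-1 lay close to a sum of PET-4 and PET-5 (0.703). PET-2 lay close to one of PET-6 and PET-7 (0.392) and PET-3 to one of PET-6 and PET-8 (0.398). Call counts are given with and without the libraries close to sums, and leading genes without the 4 of ETEC. CON-4 held transcripts of liver-type plasma proteins, with a summed level of 155 FPKM over the 9 listed genes against 8.61 in CON-7, 3.33 in CON-8 and 7.54 to 21.8 in ETEC. On the Y chromosome, 7 loci had 0 counts in every CON library and in ETEC-8 and were counted in the other 7 ETEC libraries. Challenge and whatever sets Y-linked counts cannot be told apart in those 7, so values of ETEC-8 are given for the leading genes. Listed genes took 299776 to 431855 counts in the 3 CON libraries and 466708 to 863801 in ETEC, at relative depths of 0.718 to 0.863 and 0.848 to 1.501.

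Only the 639 genes that the authors called in some comparison are in the table, so every count below is a share of genes already selected. The test was edgeR's quasi-likelihood test on counts, with p-values adjusted by Benjamini-Hochberg across the 577 genes left by a filter on low counts. Of these, 139 were called at an adjusted p under 0.05, or 24.1%, with 78 higher in ETEC (13.5%) and 61 lower (10.6%). The 78 include the 7 Y-linked loci, leaving 71 higher outside the Y chromosome, and further loci with 0 counts in the 3 controls. Such loci passed the filter through ETEC, so the shares of 13.5% and 24.1% used below are raised by them. Against all 8 CON libraries, 412 of 507 were called (81.3%), with 164 higher (32.3%) and 248 lower (48.9%). The median log2 fold change over the genes tested was 0.21 against the 3 libraries and -0.74 against all 8. Both comparisons share the ETEC libraries and the 3 CON libraries. Without CON-1 to CON-3, 334 genes were called against the other 5 CON libraries, 140 higher and 194 lower, and without ETEC-1 to ETEC-4 as well 12 were called. Without the 4 ETEC libraries close to sums, 13 genes were called, 8 higher and 5 lower, with 134 at an unadjusted p under 0.05. The p-values take the choice of the 3 controls and of the 639 genes as given, and the authors' comparisons that selected the genes hold these libraries too. An adjusted p under 0.05 here is therefore no false discovery rate over all genes of the genome. Genes that follow the 11 were brought close to ETEC by the choice itself.

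The groups did not overlap for 58 of the 577 tested genes with all 8 ETEC libraries higher (10.1%) and for 60 with all lower (10.4%). Against all 8 CON libraries, these numbers were 39 higher (6.76%) and 31 lower (5.37%), and 43 and 33 without CON-1 to CON-3. Among called genes outside the Y chromosome, 71 were higher, and in 65 of them ETEC-8 stood above the 3 CON libraries. Of the 61 lower, ETEC-8 stood below the 3 in 52. ETEC-8 was itself in the fit that made these calls, so both counts follow in part from the calls. They do not separate challenge from whatever sets Y-linked counts. Of the 139 called genes, 38 carry a symbol in the authors' table, 20 higher and 18 lower, and 101 carry none.

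A fit of all 24 libraries in 4 sets, which shares 1 estimate of the spread with the other CON libraries and PET, called 85 genes. Of the 26 called genes with a symbol that are described here, 15 lost their call in it, at adjusted p of 0.0515 to 0.599. Those were CCK (0.120), NTS, SLC13A2 (0.142), SLC46A1, SLC52A3, SLC37A2, MTTP (0.247), ALDH8A1, TMEM72, CFAP221, PAPSS2, HOXB6 (0.599), TLR5, NOS2 (0.178) and PITPNM3. PAPPA2 and REC8 were called in it (adjusted p = 0.00186 and 0.0407).

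PAPPA2, a protease that cuts insulin-like growth factor binding proteins and so frees the growth factor (ENSBGRG00000005766; chromosome 14, 56672622 to 56970223 in the coordinates of the authors' table), rose most among called genes that carry a symbol and average 1 FPKM or more. It was at 0.377, 0.502 and 0.158 FPKM in CON-4, CON-7 and CON-8, and at 1.57, 2.35 and 2.87 in ETEC as lowest, median and highest. Every ETEC library, ETEC-8 at 1.57 included, lay above all 8 CON libraries, whose other 5 were at 0.468 to 0.766. The log2 fold change was 2.73 ± 0.36 (SE; n = 8 and 3; edgeR adjusted p = 0.000638), against 2.19 with all 8 CON libraries. It was 2.75 without the 4 ETEC libraries close to sums (adjusted p = 0.0364). Tissue was sequenced whole, so a change in the number of cells of a type and a change in RNA per cell cannot be told apart. This holds for PAPPA2 and every later gene.

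REC8, a subunit of the meiotic cohesin ring (ENSBGRG00000017034; chromosome 11, 2438528 to 2446217), stood at 6.21, 5.87 and 4.98 FPKM in the 3 controls and at 11.6 to 16.5 in ETEC, with a median of 12.8. No ETEC library came near a control, and the other 5 CON libraries were lower still at 2.39 to 4.86. Its log2 fold change was 1.20 ± 0.15 (SE; n = 8 and 3; edgeR adjusted p = 0.000388), and 1.24 without the 4 ETEC libraries (adjusted p = 0.0364). Of 3 germline-linked genes tested, REC8 rose and the other two were not called: the kinase STK31 had a log2 fold change of 0.15 and the Tudor domain gene TDRD1 0.18.

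Both enteroendocrine genes in the table rose, beside 13.5% higher over all genes tested. Their median log2 fold change was 1.25, beside the 0.21 of all genes. CCK encodes cholecystokinin, a hormone released by I cells after fat and protein (ENSBGRG00000018878; chromosome 22, 51723960 to 51732717). CCK was at 0.981, 0.676 and 0.508 FPKM in CON-4, CON-7 and CON-8 and at 1.03 to 4.55 in ETEC, with a median of 2.40. The groups did not overlap, although ETEC-8 at 1.03 lay just above CON-4, and the other 5 CON libraries were at 0.302 to 0.768. The fitted log2 fold change was 1.84 ± 0.42 (SE; n = 8 and 3; edgeR adjusted p = 0.00993), and 1.81 without the 4 ETEC libraries (adjusted p = 0.102).

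NTS, which encodes neurotensin, a peptide of N cells that are most common in the ileum (ENSBGRG00000003064; chromosome 5, 93201305 to 93214125), changed direction with the controls used. It was at 3.83, 3.86 and 3.39 FPKM in the 3 controls, at 3.79 to 6.84 in ETEC (median 6.03) and at 35.4 to 85.1 in the other 5 CON libraries. ETEC-8 at 3.79 fell within the 3 controls and the other 7 ETEC libraries above them. The log2 fold change was 0.66 ± 0.19 (SE; n = 8 and 3; edgeR adjusted p = 0.0267) against the 3 and -2.69 against all 8 (adjusted p = 0.00151). This call was lost without CON-4, CON-7, CON-8 or ETEC-1 (adjusted p = 0.0705, 0.0508, 0.0925 and 0.0510) and without the 4 ETEC libraries (0.234).

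Among 8 nutrient, vitamin and bile acid transporters tested apart from the 11 genes, 3 rose and 0 fell, beside 13.5% higher and 10.6% lower over all genes tested, with a median log2 fold change of 0.43. SLC13A2, a sodium-coupled carrier of citrate and other dicarboxylates (ENSBGRG00000024776; chromosome 19, 49083340 to 49113492), was at 15.5, 11.8 and 8.64 FPKM in CON-4, CON-7 and CON-8 and at 18.4 to 44.3 in ETEC, with a median of 32.1. All ETEC libraries stood above all 8 CON libraries, and ETEC-8 was at 39.5. This gave a log2 fold change of 1.38 ± 0.32 (SE; n = 8 and 3; edgeR adjusted p = 0.0110), with adjusted p = 0.0509 without CON-8 and 0.0979 without the 4 ETEC libraries. The folate transporter SLC46A1 was at 32.5 to 47.6 FPKM in the 3 controls and 47.4 to 69.9 in ETEC, and the riboflavin transporter SLC52A3 at 0.195 to 0.356 and 0.467 to 1.19. SLC46A1 overlapped, with CON-4 above the lowest ETEC library, and SLC52A3 did not. In the other CON libraries SLC52A3 was at 0.996 to 2.102, above all ETEC libraries but ETEC-6. Their log2 fold changes were 0.55 and 1.16 (edgeR adjusted p = 0.0398 and 0.0285), with adjusted p = 0.236 and 0.140 without the 4 ETEC libraries. The SLC52A3 call was also lost without CON-4, CON-7 or CON-8, at adjusted p of 0.0593, 0.0906 and 0.0575. That of SLC46A1 was lost without CON-7 or CON-8 (0.124 and 0.0895), without 1 of ETEC-1 to ETEC-3, ETEC-5 and ETEC-6 (0.0515 to 0.0665), and with library sizes scaled by TMM (0.0687) or DESeq2 size factors (0.0633).

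The sugar phosphate carrier SLC37A2, outside the lists, was at 49.6, 32.5 and 22.5 FPKM in CON-4, CON-7 and CON-8 and at 49.99 to 99.9 in ETEC, with a median of 76.0. ETEC-8 was at 85.1, and no ETEC library fell below a control. Its log2 fold change was 1.06 ± 0.29 (SE; n = 8 and 3; edgeR adjusted p = 0.0228), with adjusted p = 0.0669 without CON-7, 0.0895 without CON-8 and 0.125 without the 4 ETEC libraries. The peptide transporter SLC15A1 was at 18.1 to 25.8 FPKM in the 3 controls and 18.9 to 26.0 in ETEC, with a log2 fold change of 0.0046 ± 0.14 (SE) and one of -0.27 against all 8 CON libraries. Its ranges overlapped almost wholly. SLC15A1 and MTTP, both genes of small intestinal absorptive cells, were thus present in all 11 libraries.

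Lipid handling held 2 tested genes, of which 1 was called, beside 24.1% over all genes tested. MTTP loads lipid onto nascent chylomicrons (ENSBGRG00000002196; chromosome 6, 101461280 to 101523137) and was at 48.5, 40.8 and 37.0 FPKM in the 3 controls and at 59.5 to 77.4 in ETEC, with a median of 69.2. The groups stood apart, and ETEC-8 at 59.5 was the lowest of ETEC. The fitted log2 fold change was 0.71 ± 0.13 (SE; n = 8 and 3; edgeR adjusted p = 0.00387), and 0.66 without the 4 ETEC libraries (adjusted p = 0.102).

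ALDH8A1, an aldehyde dehydrogenase of the kynurenine branch of tryptophan breakdown (ENSBGRG00000018084; chromosome 10, 15344724 to 15372436), was at 1.54, 0.876 and 0.961 FPKM in CON-4, CON-7 and CON-8 and at 1.56 to 4.31 in ETEC, with a median of 2.46. The lowest ETEC library was just above CON-4, and ETEC-8 was at 2.53. This gave a log2 fold change of 1.21 ± 0.36 (SE; n = 8 and 3; edgeR adjusted p = 0.0348). Without CON-7, CON-8, ETEC-1 or ETEC-6 the adjusted p was 0.0980, 0.115, 0.0569 and 0.0510, and it was 0.132 without the 4 ETEC libraries. Of the 4 genes of its list, of kynurenine, NAD and purine enzymes, 1 rose and 3 were not called. The share higher over all genes tested was 13.5%, and the list had a median log2 fold change of 1.13. ADA, which deaminates adenosine, had 1.09 (adjusted p = 0.137) and the ectonucleotidase ENPP3 0.65 (adjusted p of 0.05 after rounding and not under the threshold), although ENPP3 did not overlap, at 43.7 to 90.8 FPKM in the 3 controls and 92.7 to 141 in ETEC.

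The 10 largest rises also held 4 genes of other roles. The small GTPase relative ARL10 was at 0.421 to 1.87 FPKM in the 3 controls and 2.69 to 4.17 in ETEC (log2 fold change 1.40, edgeR adjusted p = 0.0181). The membrane protein TMEM72 was at 1.96 to 2.69 and 3.78 to 5.71 (1.06, adjusted p = 0.00284), and CFAP221, named for cilia and flagella, at 1.60 to 2.56 and 2.83 to 4.91 (0.83, adjusted p = 0.0238). These 3 did not overlap with any of the 8 CON libraries. PAPSS2, which makes the sulfate donor PAPS, was at 3.53 to 4.94 and 4.76 to 8.82 FPKM (0.72, adjusted p = 0.0238) and at 4.02 to 9.88 in the other CON libraries, so it overlapped with both sets. The adjusted p of these 4 genes was 0.132, 0.0862, 0.181 and 0.179 without the 4 ETEC libraries. CFAP221 lost its call without CON-7 (adjusted p = 0.0789) and PAPSS2 without CON-7 or CON-8 (0.0527 and 0.0970).

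**Figure D2:**
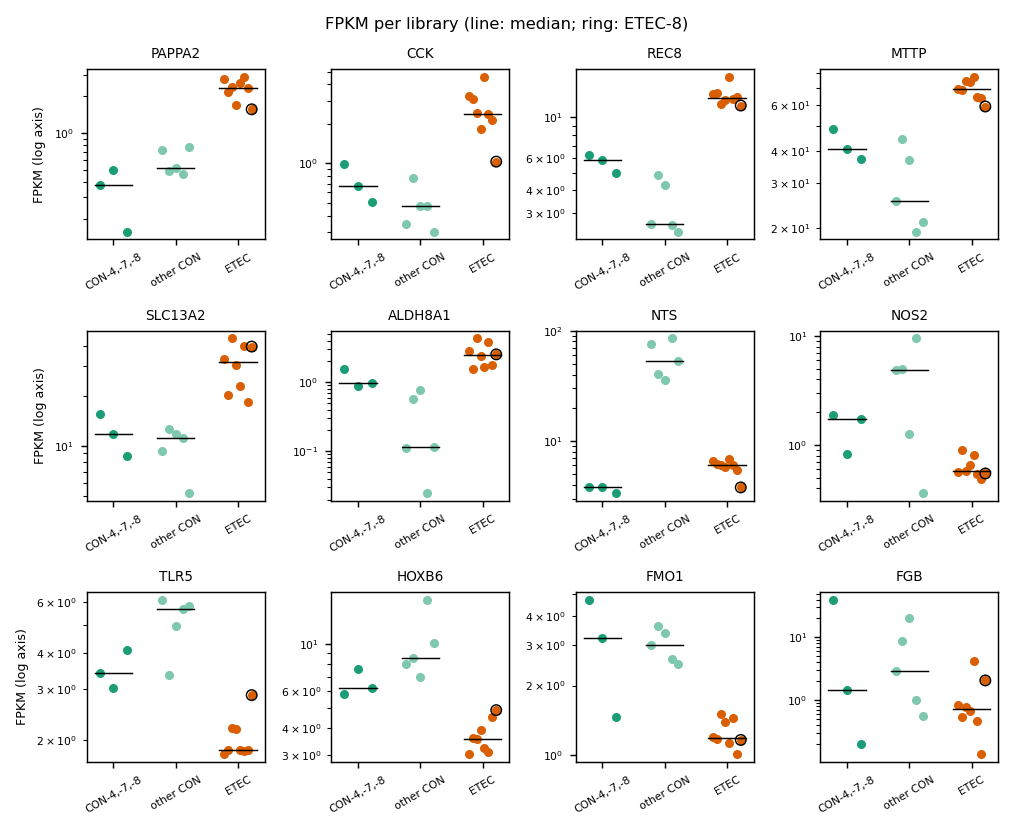
FPKM per library on a log axis for 12 genes, with 1 point per library in the 3 chosen CON libraries, the other 5 CON libraries and ETEC; lines mark medians and the ring marks ETEC-8. PAPPA2 in ETEC (1.57 to 2.87) clears every CON library, NTS in ETEC (3.79 to 6.84) sits beside the 3 chosen controls and below the others (35.4 to 85.1), and FGB spans 0.199 to 40.0 among the 3 chosen controls.

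Of the 5 innate sensing, antimicrobial and interferon genes tested, 2 fell and 0 rose, beside 10.6% lower over all genes tested, with a median log2 fold change of -0.77. TLR5, the receptor of bacterial flagellin (ENSBGRG00000008930; chromosome 14, 21691077 to 21693692), was at 3.40, 3.02 and 4.10 FPKM in CON-4, CON-7 and CON-8 and at 1.79 to 2.86 in ETEC, with a median of 1.85. ETEC-8 at 2.86 was the highest of ETEC and still below every CON library, the other 5 being at 3.35 to 6.09. The log2 fold change was -0.77 ± 0.18 (SE; n = 8 and 3; edgeR adjusted p = 0.00993), with adjusted p = 0.0513 without CON-8 and 0.138 without the 4 ETEC libraries.

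NOS2, the inducible nitric oxide synthase (ENSBGRG00000013000; chromosome 19, 49692469 to 49750948), was at 1.88, 0.828 and 1.72 FPKM in the 3 controls and at 0.4927 to 0.907 in ETEC, with a median of 0.574. CON-7 lay within the ETEC range and the other two above it, while the other 5 CON libraries ran from 0.364 to 9.55. Its log2 fold change was -1.21 ± 0.26 (SE; n = 8 and 3; edgeR adjusted p = 0.00807) against the 3 and -2.32 against all 8, and -1.31 without the 4 ETEC libraries (adjusted p = 0.0899). LTF, the iron-binding lactoferrin, was not called (log2 fold change -0.77, adjusted p = 0.139), though its ranges of 0.508 to 0.573 and 0.0896 to 0.491 FPKM did not overlap. Neither ISG15, an interferon-induced ubiquitin-like protein, nor DDAH1, which breaks down an inhibitor of nitric oxide synthases, was called, at log2 fold changes of 0.10 and -0.17.

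HOXB6, a homeobox factor of position along the gut (ENSBGRG00000021579; chromosome 19, 28800015 to 28803798), fell. It was at 5.81, 7.56 and 6.19 FPKM in CON-4, CON-7 and CON-8 and at 3.02 to 4.87 in ETEC, with a median of 3.58 and ETEC-8 the highest. All ETEC libraries were below all CON libraries, of which the other 5 were at 6.94 to 16.1. The fitted log2 fold change was -0.80 ± 0.18 (SE; n = 8 and 3; edgeR adjusted p = 0.00885), and -0.73 without the 4 ETEC libraries (adjusted p = 0.136). Of the 3 regional transcription factors tested, HOXB6 was the 1 called, beside 24.1% over all genes tested. ONECUT2, a factor of proximal small intestine, had a log2 fold change of 0.48 against the 3 controls and 1.37 against all 8.

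The other large falls covered unrelated functions. AIFM3, an apoptosis-inducing factor relative, was at 2.08, 2.75 and 2.37 FPKM in the 3 controls and 0.359 to 1.25 in ETEC (log2 fold change -1.46, edgeR adjusted p = 0.00885). RNF39, a RING finger gene on chromosome 24, which also holds the class I histocompatibility chains described later, was at 3.45 to 3.84 and 0.918 to 2.34 FPKM (-1.13, adjusted p = 0.00856), and PITPNM3, a phosphatidylinositol transfer protein, at 1.61 to 1.97 and 0.673 to 1.28 (-0.76, adjusted p = 0.0165). In these 3 genes every ETEC library lay below every CON library. GALNT15, which starts mucin-type O-glycans, was at 1.40 to 2.26 and 0.395 to 1.14 FPKM (-1.32, adjusted p = 0.00807), and the cytosolic carbonic anhydrase CA3 at 7.75 to 8.52 and 2.18 to 7.49 (-1.16, adjusted p = 0.0454). Both stood apart from the 3 controls and overlapped with the other 5, and in CA3 the ETEC library nearest to them was ETEC-8 at 7.49. The adjusted p of the 5 was 0.102, 0.0979, 0.145, 0.107 and 0.222 without the 4 ETEC libraries.

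FMO1, a flavin-containing monooxygenase, was at 4.70, 3.20 and 1.46 FPKM and at 1.01 to 1.51 in ETEC, so CON-8 lay within ETEC, and the log2 fold change was -1.32 (edgeR adjusted p = 0.00765). ABCA10, a lipid transporter relative, was at 2.11, 5.59 and 1.16 FPKM and at 1.07 to 1.37 in ETEC, and its call rested on CON-7. It had a log2 fold change of -1.32 (edgeR adjusted p = 0.0165), and -0.47 without CON-7 (adjusted p = 0.129). Without CON-4 or CON-8, PITPNM3 lost its call (adjusted p = 0.0566 and 0.0615). The CA3 call was lost without any of the 3 controls (0.0872 to 0.119) and without 1 of ETEC-1 to ETEC-3, ETEC-5 and ETEC-6 (0.0601 to 0.0698). Without the 4 ETEC libraries the adjusted p was 0.102 for FMO1 and 0.146 for ABCA10.

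FGB, the fibrinogen beta chain (ENSBGRG00000018357; chromosome 16, 12498588 to 12506365), had the largest fitted fall among called genes that carry a symbol and average 1 FPKM or more, and rested on CON-4. It was at 40.0, 1.42 and 0.199 FPKM in CON-4, CON-7 and CON-8 and at 0.136 to 4.18 in ETEC, with a median of 0.708. CON-4 stood alone, and CON-7 and CON-8 lay within ETEC. The log2 fold change was -3.53 ± 1.15 (SE; n = 8 and 3; edgeR adjusted p = 0.0464), and 0.57 without CON-4 (adjusted p = 0.707). ITIH2, an inter-alpha-trypsin inhibitor heavy chain made in liver, was at 1.68, 0.0466 and 0.0270 FPKM and at 0.0109 to 0.166 in ETEC. It had -2.83 (adjusted p = 0.0477) and 1.12 without CON-4 (adjusted p = 0.331). Of the 8 liver-type plasma protein genes tested, these 2 were called lower (10.6% over all genes) and 6 were not called, among them albumin, ALB, at 53.3, 1.76 and 0.138 FPKM in the 3 controls. Both calls were also lost without 1 of ETEC-1 to ETEC-4, ETEC-6 and ETEC-7 (adjusted p of 0.0549 to 0.0754) and without the 4 ETEC libraries (0.275 and 0.256). The median log2 fold change of the list was -2.89.

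FABP6, CCL24 and CCL26 had the largest falls against all CON libraries among genes with a symbol averaging at least 1 FPKM outside the 11 selecting genes, and none of them was called against the 3. FABP6, the ileal bile acid binding protein (ENSBGRG00000017725; chromosome 8, 78209335 to 78217992), was at 0.890, 2.76 and 2.38 FPKM in CON-4, CON-7 and CON-8, at 0.912 to 4.39 in ETEC and at 13.2 to 849 in the other CON libraries. The 3 controls and ETEC overlapped almost fully. This gave a log2 fold change of 0.30 ± 0.48 (SE; edgeR adjusted p = 0.619) against the 3 and -6.46 against all 8, or -6.13 without CON-1 to CON-3. The table's 2 cytokine genes, CCL24 and CCL26, both attractants of eosinophils, had 0.10 and 0.25 against the 3 (adjusted p = 0.783 and 0.518) and -3.11 each against all 8. CCL24 was at 1.36 to 3.14 FPKM in the 3 controls, 1.59 to 3.28 in ETEC and 15.2 to 52.2 in the other CON libraries.

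PROZ, the vitamin K-dependent protein Z, and SDSL, a serine dehydratase relative, were among the largest rises against all CON libraries (2.08 and 1.99) and were not called against the 3 (1.54 and 1.00, edgeR adjusted p = 0.0507 and 0.159). In PROZ, ETEC-8 was the lowest of ETEC at 0.515 FPKM, below the 3 controls at 0.698 to 1.17. SDSL ran from 18.1 to 26.2 FPKM in the 3 controls and from 10.9 to 74.4 in ETEC. TMIGD1, an epithelial membrane protein that was listed with the brush border and with adhesion genes, was at 0.227 to 0.359 FPKM in the 3 controls and at 0 to 0.285 in ETEC, against 0.688 to 76.3 in the other CON libraries.

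**Figure D3:**
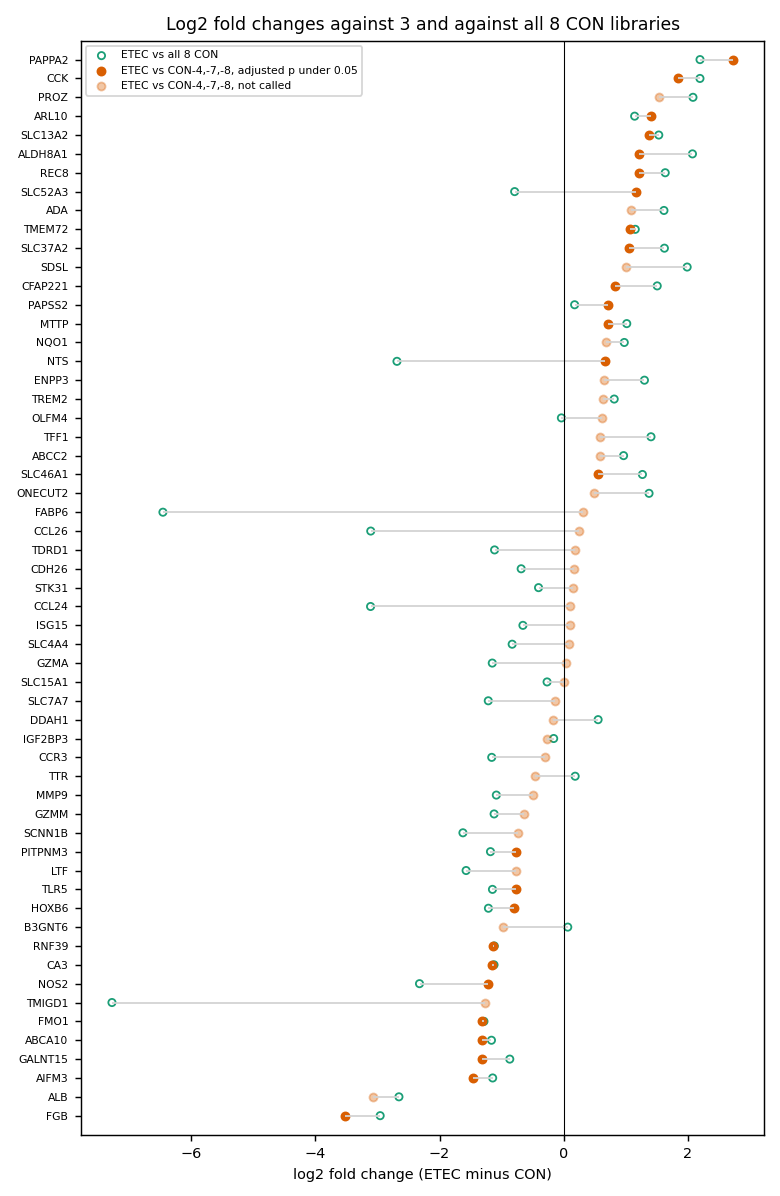
Log2 fold change of ETEC for the named genes, with filled points against CON-4, CON-7 and CON-8 (pale where not called) and open points against all 8 CON libraries, which share the ETEC and the 3 CON libraries. PAPPA2 stays at the right (2.73 and 2.19), while FABP6 moves from -6.46 to 0.30 and NTS from -2.69 to 0.66.

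Lists without a call included those of hydrolases, ion transport, xenobiotic defence, mucus and adhesion, beside 24.1% called over all genes tested. Among 7 tested brush border hydrolases apart from the 11 genes, 0 were called in either direction, with a median log2 fold change of 0.29. The 7 include ENPP3, which did not overlap with the 3 controls and had an edgeR adjusted p of 0.05 after rounding. Ion, acid-base and water transport had 2 genes tested, the epithelial sodium channel subunit SCNN1B (-0.74) and the sodium bicarbonate carrier SLC4A4 (0.09), and neither was called. Of the 4 genes of xenobiotic and oxidative stress defence, 0 were called. The quinone reductase NQO1 was at 10.8 to 24.8 FPKM in the 3 controls and 22.03 to 33.1 in ETEC (log2 fold change 0.68, edgeR adjusted p = 0.0633), and the export pump ABCC2 had 0.58. Without CON-7, NQO1 was called (edgeR adjusted p = 0.0154). Among 3 goblet and mucus genes, B3GNT6, which extends mucin O-glycans, ran from 0.309 to 88.2 FPKM in the 3 controls and from 0.171 to 96.9 in ETEC, and the trefoil peptide TFF1 had a log2 fold change of 0.59. The amino acid exchanger SLC7A7 had -0.15 and was not called. Of 2 epithelial adhesion genes, 0 were called, and the cadherin CDH26 had 0.17.

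Of 5 genes for crypt stem cells, cycle and growth, PAPPA2 was the 1 called, beside 24.1% over all genes tested. OLFM4, a crypt base marker, was at 102 to 104 FPKM in the 3 controls and at 78.7 to 396 in ETEC, and the RNA-binding protein IGF2BP3 had a log2 fold change of -0.26. Among genes with a symbol, the marker lists of other cell types gave 0 calls: 0 of 3 for T and natural killer cells, 0 of 3 for neutrophils, 0 of 1 for macrophages and dendritic cells and 0 of 1 for mast cells and eosinophils. The granzyme GZMA was at 16.9 to 18.0 FPKM in the 3 controls and 12.2 to 20.4 in ETEC (0.03), GZMM had -0.64, the gelatinase MMP9 -0.50, the microglia and macrophage receptor TREM2 0.63 and the eotaxin receptor CCR3 -0.29. The lists for tuft cells, for B and plasma cells and for stroma, muscle and vessels had no member in the table.

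Loci without a symbol were 399 of the 639 in the table and carried 101 of the 139 calls. The next groups were formed from the authors' annotation text after their values were seen. Class I histocompatibility chains present peptides to cytotoxic T cells and are read by receptors of natural killer cells. ENSBGRG00000022538, annotated as such a chain (chromosome 24, 6525098 to 6531914), was at 95.9, 86.1 and 97.8 FPKM in CON-4, CON-7 and CON-8 and at 27.98 to 43.2 in ETEC, with a median of 37.1. All 8 CON libraries lay above all ETEC libraries, the other 5 at 90.4 to 109.8, and ETEC-8 was at 34.1. The fitted log2 fold change was -1.34 ± 0.15 (SE; n = 8 and 3; edgeR adjusted p = 0.000177), and -1.48 without the 4 ETEC libraries (adjusted p = 0.0211).

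The second such chain in the table, ENSBGRG00000009937 (chromosome 24, 7035316 to 7038693), was at 28.5, 32.1 and 25.4 FPKM in the 3 controls and at 7.97 to 16.6 in ETEC, again below every CON library. Its log2 fold change was -1.21 ± 0.24 (SE; n = 8 and 3; edgeR adjusted p = 0.00509), and -1.19 without the 4 ETEC libraries (adjusted p = 0.0899). In the fit of all 24 libraries the first chain was called (adjusted p = 0.00172) and the second was not (0.137). Class I genes have near-identical copies that differ between animals, and how shared or mismatched reads were counted is not given in the sources used here. Read assignment was not tested, so both values are uncertain.

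Of the 7 loci annotated as natural killer cell receptors, 5 were lower and 0 higher, beside 10.6% lower over all genes, with a median log2 fold change of -1.17. The group was formed after its values were seen, so no excess over that share is read. All but ENSBGRG00000020643 of the 5 lower loci lost their call in the fit of all 24 libraries (adjusted p of 0.0539 to 0.284). Apart from ENSBGRG00000017516, the 5 lie together on chromosome 5 (2275335 to 2558571). ENSBGRG00000021021 (chromosome 5, 2546184 to 2558571) was at 5.76, 9.27 and 5.86 FPKM in the 3 controls and at 1.32 to 3.43 in ETEC, with -1.62 (edgeR adjusted p = 0.00415). ENSBGRG00000020643 was at 13.2, 17.4 and 13.8 FPKM and at 4.01 to 8.89 (-1.13, adjusted p = 0.0117), and ENSBGRG00000020589 at 4.69, 6.48 and 4.25 and at 1.101 to 3.23 (-1.53, adjusted p = 0.00852). In all 3 no ETEC library reached a chosen control. The other two lower loci, ENSBGRG00000020785 and ENSBGRG00000017516, had -1.38 and -1.17, and KLRF1 and KLRF2 were not called at -0.46 and 2.74. Without the 4 ETEC libraries none of the 5 kept an adjusted p under 0.05 (0.0513 to 0.145). The call of ENSBGRG00000017516 was lost without CON-8 (adjusted p = 0.0569), and that of ENSBGRG00000020785 without any of the 3 controls (0.0718 to 0.111) or without ETEC-1, ETEC-2, ETEC-5 or ETEC-6 (0.0534 to 0.0630). These receptors form families of close copies, for which the same limit on read assignment holds. Of 8 T cell receptor chain loci, 1 was lower, near the 10.6% over all genes, and 7 were not called, with a median of -0.88.

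**Figure D4:**
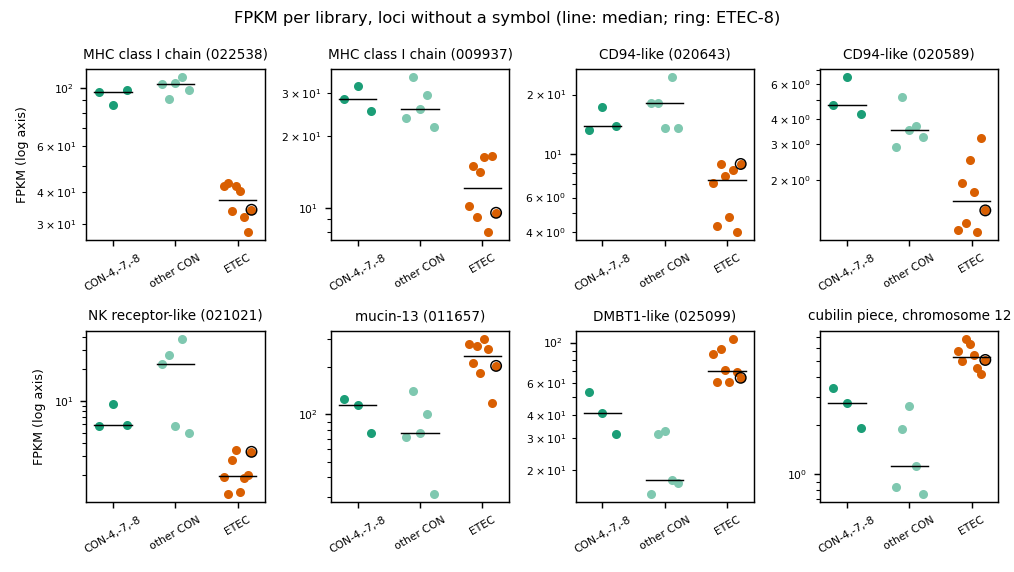
FPKM per library on a log axis for 8 loci without a symbol, titled by the authors' annotation with the last digits of the identifier or, for the cubilin piece, the chromosome, with lines at medians and a ring on ETEC-8. The first histocompatibility chain falls from 86.1 to 97.8 in the 3 chosen controls to 27.98 to 43.2 in ETEC, and the natural killer receptor loci lie below the chosen controls, while the mucin-13, DMBT1-like and cubilin loci are higher in ETEC, with CON-4 inside the ETEC range for mucin-13.

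Mucin-13 is a transmembrane mucin of the enterocyte glycocalyx. Both loci annotated as such rose, beside 13.5% higher over all genes tested. ENSBGRG00000011657 (chromosome 1, 75196448 to 75215607) was at 125, 114 and 76.1 FPKM in CON-4, CON-7 and CON-8 and at 118 to 299.9 in ETEC, with a median of 235. CON-4 lay within the ETEC range. This gave a log2 fold change of 1.12 ± 0.28 (SE; n = 8 and 3; edgeR adjusted p = 0.0165), and that of its neighbour ENSBGRG00000011810 was 1.53. Both calls were lost without CON-8 (adjusted p = 0.0710 and 0.0760) and without the 4 ETEC libraries (0.125 and 0.111), and that of ENSBGRG00000011657 in the fit of all 24 libraries (0.0687).

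Both loci annotated like DMBT1, a secreted scavenger protein that binds bacteria, rose too, beside the same 13.5% over all genes tested. ENSBGRG00000025099 (chromosome 25, 46238133 to 46251047) was at 53.8, 41.2 and 31.4 FPKM in the 3 controls and at 60.6 to 105 in ETEC, above all 8 CON libraries, with a log2 fold change of 0.85 (edgeR adjusted p = 0.0207). Its neighbour on the chromosome (46257628 to 46281217) had 0.73. The first call was lost without CON-7 or CON-8 (adjusted p = 0.0550 and 0.0880), the second without CON-7, CON-8 or any ETEC library but ETEC-2 and ETEC-7 (0.0544 to 0.161), and both without the 4 ETEC libraries (0.138 and 0.205) and in the fit of all 24 libraries (0.313 and 0.473).

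In all, 6 pieces annotated as cubilin, the endocytic receptor that takes up the complex of vitamin B12 with intrinsic factor, lie side by side on chromosome 12 and may be parts of 1 gene. All 6 had log2 fold changes above 0, from 0.52 to 1.00, and 3 were called higher, beside 13.5% over all genes tested. The piece at 22019589 to 22027048 was at 3.42, 2.74 and 1.93 FPKM in the 3 controls and at 4.13 to 6.84 in ETEC, above every CON library (log2 fold change 1.00 ± 0.23, SE; n = 8 and 3; edgeR adjusted p = 0.0110). Its adjusted p was 0.141 without the 4 ETEC libraries, and the 3 pieces had 0.207 to 0.460 in the fit of all 24 libraries. The calls of the pieces at 21922875 to 21937793 and 21940552 to 22017838 were lost without CON-7 or CON-8 (adjusted p of 0.0802 to 0.140), without 1 of ETEC-1 to ETEC-6 for the first and of ETEC-1 and ETEC-3 to ETEC-6 for the second (0.0513 to 0.0688), and without the 4 (0.236 and 0.220). Of 12 immunoglobulin chain loci, 3 were higher, beside 13.5% over all genes tested, and 9 not called, with a median log2 fold change of 0.71. The largest, ENSBGRG00000009260, had 1.93 and was not called without CON-7, CON-8, ETEC-1, ETEC-2 or ETEC-3 (adjusted p of 0.0505 to 0.0956) or without the 4 ETEC libraries (0.195).

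Outside the Y chromosome, 5 loci without a name had 0 counts in all 8 CON libraries and counts in all 8 ETEC libraries, on chromosomes 2, 3, 5, 10 and 29. The authors' annotation is retroelement-like for 4 of them, all but the one on chromosome 2. Copies of such elements are near-identical, so reads may have been split or shared among them, and this was not tested. The locus on chromosome 5 (90339417 to 90339666) was at 6.66 to 26.3 FPKM in ETEC, with a median of 16.01 and ETEC-8 at 17.0. Against a floor of 3 counts over the 3 controls together its level in ETEC was at least 99-fold higher; over all 8 CON libraries the same floor gave at least 291-fold. Over the 5 loci the bounds ran from at least 20-fold to at least 99-fold against the 3 controls.

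A further locus annotated as retroelement-like, on chromosome 8 (93987982 to 94017545), had 0 counts in the 3 controls and 2 counts over all 8 CON libraries. It was at 6.75 to 21.6 FPKM in ETEC (median 11.3) and at least 135-fold higher than the floor of the 3 controls. These 6 loci were picked for their 0 counts in the controls and passed the filter on low counts through ETEC, so they are described without a test. In PET, the 5 loci had counts in 6 libraries and 0 counts in PET-5 and PET-8.

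**Figure D5:**
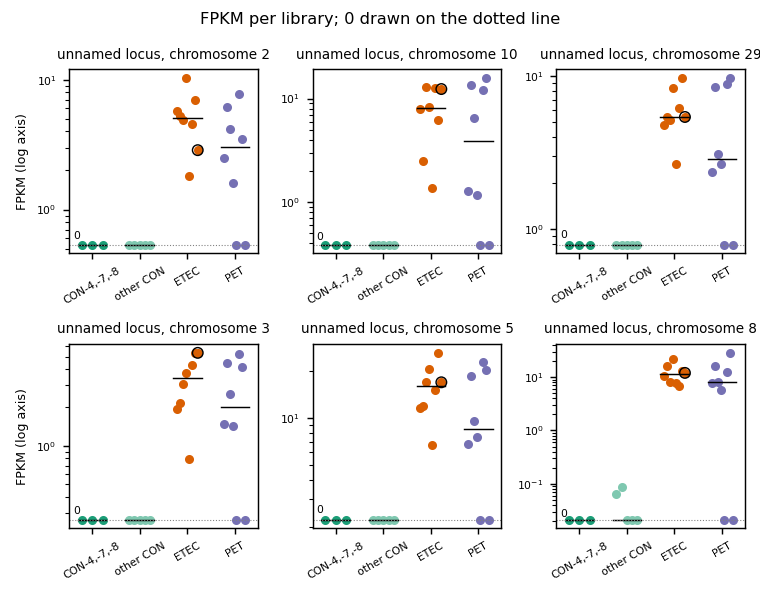
FPKM per library on a log axis for 6 unnamed loci, 1 point per library in 4 sets, with 0 drawn on the dotted line and a ring on ETEC-8. All 8 ETEC libraries carry all 6 loci, all 8 CON libraries are at 0 for the first 5, and PET splits into 6 libraries with counts and 2 at 0.

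The 2 largest fitted falls among called loci without a symbol were at loci low in every ETEC library. ENSBGRG00000018050 (chromosome 24, 5870896 to 5871822), annotated as olfactory receptor-like, was at 0.793, 2.57 and 0.911 FPKM in CON-4, CON-7 and CON-8 and at 0 to 0.127 in ETEC. The other 5 CON libraries ran from 0 to 2.15, so they overlapped with ETEC. Its log2 fold change was -5.08 ± 0.86 (SE; n = 8 and 3; edgeR adjusted p = 0.00284), with adjusted p = 0.0513 without the 4 ETEC libraries. An unnamed locus on chromosome 13 (62799225 to 62857276) was at 4.17, 0.0989 and 3.58 FPKM and at 0.0316 to 0.264 in ETEC (-4.74, adjusted p = 0.00284), with CON-7 inside the ETEC range. It was not called with voom (adjusted p = 0.0784) and not tested without the 4.

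Of 81 loci annotated as retroelement-like, 72 passed the filter on low counts, and 6 of the 81 had 0 counts in all 8 CON libraries. Some thus passed through ETEC alone, and the group was formed after its values were seen, so no direction is read from it.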

How the data were processed

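Sample titles gave the group and replicate number. Per the file headers, the authors deposited a read count per gene and library, whole numbers without normalization, and FPKM for the same genes; the deposited log2 fold changes, p-value and adjusted p-value columns of the authors were not used. The table holds 639 genes that the authors called. The aligner, the counting tool with its strand setting and the genome build were not given in the sources used here. The labels' protocol describes small RNA libraries, although genes were counted. The RefSeq table used for names (assembly Bosgru_T2T1.0) matched 0 identifiers, so symbols and coordinates are the authors'.

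The controls, the genes and the lists were chosen with earlier results of these data known. The 11 libraries were fitted by edgeR 4.0.16 (R 4.3.3) with filterByExpr and its quasi-likelihood test, Benjamini-Hochberg adjustment over 577 genes and a threshold of 0.05. Library sizes were relative depths from the ratio of count to FPKM (233 genes with at least 20 counts; largest SD of the log2 ratio 5.16e-05). TMM presumes that most genes do not change and the table holds called genes, so it was an alternative. Differences against all CON libraries came from a separate fit of 16 libraries. The scripts were tested on simulated data.

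Genes were named by rule: the 10 largest rises and falls among called genes that carry a symbol and average 1 FPKM or more over the 11 libraries, outside the Y chromosome and the 11 selecting genes; up to 3 called and 2 not called members per list; the 6 largest rises and falls against all CON libraries; and 2 rises and 2 falls without a symbol. Of 22 lists, 19 had a member in the table. Results for 3 named genes are not reported here. The annotation groups and the loci at 0 in CON were chosen after their values were seen. Over 31 pairs of libraries within the groups the smallest chi-square per gene of their counts was 37.3, so none agreed within sampling noise. Closeness to sums was a non-negative fit of each library by every pair of others (253 pairs), with a limit of 0.8 for the residual ratio. A floor of 3 counts covers counting error only. Alternatives used DESeq2 1.42.0 and limma 3.58.1 (voom, or log2(FPKM + 0.1) and log2(FPKM + 1)).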

Additional observations from a re-analysis of the deposited data

Results flagged for a closer look

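In groups of 8 libraries, 1 library lay far from the others by Dixon's ratio in 6 of 66 groups of named genes. Chance alone gives about 1 in 20 for separate values with a normal spread. Libraries close to sums are not separate, and many genes were named for their ETEC values, so no excess is read. NTS in ETEC-8 was the lowest at 3.79 FPKM (next 5.45), OLFM4 in ETEC-8 the highest at 396 FPKM (next 222) and TLR5 in ETEC-8 the highest at 2.86 FPKM (next 2.20). SLC52A3 in ETEC-6 was the highest at 1.19 FPKM (next 0.773), REC8 in ETEC-5 at 16.5 FPKM (next 13.5) and FGB in ETEC-5 at 4.18 FPKM (next 2.05). PET entered no comparison here, and 6 of its 8 libraries had counts at all 5 loci that had 0 counts in CON and counts in every ETEC library.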

How the results depend on the processing

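The count of 139 genes called against the 3 controls was 159 with TMM, 156 with DESeq2 size factors, 144 without the filter, 105 with at least a 2-fold change, and 152 and 161 with limma on log2(FPKM + 0.1) and log2(FPKM + 1). It was 148 with voom (68 higher and 80 lower) and 236 with DESeq2 (153 higher and 83 lower). One fit of all 24 libraries gave 85. Leaving out 1 library gave 102 to 182, and without CON-8 the split was 41 higher and 62 lower. Without the 4 ETEC libraries close to sums it was 13, with DESeq2 94, with voom 36 and with TMM 24; the last 3, and the fit of CON-7 and CON-8 against ETEC-5 to ETEC-8 alone, which called 1, were added after the data were seen. Same-numbered CON and ETEC libraries had correlations of -0.17 to 0.08 over genes in 3 pairs, and differently numbered ones -0.20 to 0.20. So few pairs cannot show whether the numbers pair the samples. The replicate block, in which only 3 numbers are shared by both groups, left 1 call (149 at an unadjusted p under 0.05). Against all CON libraries, 334 were called without CON-1 to CON-3 and 12 without ETEC-1 to ETEC-4 as well, both added after the data were seen; the block called 324 of the 412 and TMM 370, where TMM moved the median log2 fold change from -0.74 to -0.38. The 3 chosen controls were the same with pseudocounts of 0.01 and 1. Of 52 named genes and loci called, 28 were called in every fit with 1 library left out, 7 without the 4 ETEC libraries, and 50 kept their sign in all alternatives. These numbers include the loci with 0 counts in the 3 controls, which passed the filter on low counts through ETEC. Outside those loci, the 7 hold only PAPPA2, REC8 and the class I chain ENSBGRG00000022538. All 3 lost their calls with the replicate block and in the fit of CON-7 and CON-8 against ETEC-5 to ETEC-8. There PAPPA2 had edgeR adjusted p of 0.0733 and 0.148, REC8 0.0804 and 0.161, and the chain at most 0.104. The 1 call of the latter fit was the retroelement-like locus on chromosome 8, which passed the filter through ETEC. Calls of FGB and ITIH2 were also lost with voom (adjusted p = 0.186 and 0.283) and limma on FPKM (0.209 to 0.364), and that of ABCA10 with limma on FPKM (0.0630 and 0.0699). Calls were gained among genes not called: ENPP3 in 8 of 26 alternatives, NQO1 in 7, PROZ in 4 and TREM2 in 1, and ALB in 1 of 25. Their lowest adjusted p over the alternatives, in that order, were 0.0150, 0.0154, 0.00453, 0.0171 and 0.0317. The cause of these changes was not tested.

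Signs turned in FGB and ITIH2, and in genes that were not called. Over the fits that leave out 1 library, FGB ran from -4.16 to 0.57, ITIH2 from -3.40 to 1.12, ALB from -3.65 to 1.21 and TTR from -0.80 to 0.46, each with its highest value without CON-4. SLC7A7 ran from -0.25 to 0.0029, FABP6 from -0.053 to 0.60, CCL24 from -0.14 to 0.47, CDH26 from -0.17 to 0.67, TDRD1 from -0.18 to 0.43, SLC15A1 from -0.11 to 0.15, GZMA from -0.0016 to 0.092, SLC4A4 from -0.0070 to 0.17 and ISG15 from -0.20 to 0.33. In the fit of CON-7 and CON-8 against ETEC-5 to ETEC-8, FGB had 1.08, ITIH2 1.28, ALB 1.69, TTR 0.41, SLC7A7 0.031, FABP6 -0.35, SLC4A4 -0.033, ISG15 -0.26 and GZMA -0.050. With the replicate block, TTR had 0.030, SLC4A4 -0.15, ISG15 -0.78 and GZMA -0.12. TMM and DESeq2 size factors gave -0.083 and -0.054 for SLC15A1 and -0.041 and -0.020 for GZMA. For ISG15, voom gave -0.055 and limma on FPKM -0.22 and -0.18. Without the 4 ETEC libraries, edgeR, DESeq2, voom and TMM gave -0.056, -0.056, -0.079 and -0.099 for SLC4A4, -0.051, -0.051, -0.52 and -0.085 for ISG15, -0.077, -0.076, -0.11 and -0.12 for GZMA and -0.13, -0.13, -0.12 and -0.13 for TDRD1, and TMM -0.029 for SLC15A1 and -0.030 for FABP6. Depth limits low genes: 62 of the 639 were not tested.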

Other observations

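PET libraries were compared with no other group, and their levels at the leading genes are values without a test. PET-1 to PET-3 lay close to sums of other PET libraries, PET-1 to one of PET-4 and PET-5, so the 8 are not clearly separate. The class I chain ENSBGRG00000022538 was at 31.2 to 49.0 FPKM in the 8 PET libraries (median 33.9), beside 27.98 to 43.2 in ETEC and 86.1 to 109.8 over CON, so no PET library reached a CON library. The second class I chain, ENSBGRG00000009937, spread from 7.83 to 71.8 FPKM in PET, with PET-1, PET-4 and PET-5 at 64.9, 64.8 and 71.8. RNF39 stood at 1.57 to 2.54 FPKM in PET, below every CON library. PAPPA2 ran from 0.833 to 3.14 FPKM in PET (median 1.75), above the 0.158 to 0.766 of CON. REC8 ran from 2.93 to 9.61 FPKM and TLR5 from 2.35 to 6.39, both overlapping with CON. The natural killer receptor locus ENSBGRG00000021021 was at 0.677 to 2.33 FPKM in 5 PET libraries and at 52.7, 67.7 and 25.8 in PET-1, PET-4 and PET-5.

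Without the 4 ETEC libraries close to sums, edgeR still called 13 genes, and 6 of these were not named above because the rule did not reach them. They are ENSBGRG00000013161 (log2 fold change 2.98), ENSBGRG00000020384 (5.31), ENSBGRG00000026621 (-1.42), and unnamed loci on chromosomes 2 (8874773 to 8878793; -1.45), 24 (8780097 to 8784341; -3.09) and 26 (19672665 to 19680695; -1.71), with adjusted p of 0.0147 to 0.0428. Of the 13, 6 are annotated as retroelement-like, beside 72 of the 577 loci tested with all 11 libraries. Those on chromosomes 5, 8 and 29 passed the filter on low counts through ETEC, so no excess is read.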
